A study of Mus musculus with 11 samples.

Results

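The genes described here carry out triglyceride synthesis and lipolysis in the liver. They are the 10 mouse genes Gpam, Agpat2, Lpin1, Lpin2, Mogat1, Dgat1, Dgat2, Pnpla2, Pnpla3 and Mgll, chosen by name for their known roles from the 24063 genes of the deposited tables. Liver RNA was compared between 6 mice treated with A2M and 5 mice treated with PBS, the buffer without the protein. A2M stands for the activated form of human alpha2-macroglobulin, a plasma protease inhibitor that the liver clears from the circulation, given by repeated intraperitoneal injection. All 11 livers carry the strain label Cd1 nu/nu, and the study's methods describe male athymic nude mice, which lack T cells, that bore human tumour xenografts under the skin. Both groups shared the nude background and the tumour procedure. The labels give no age, feeding state, time of day, date or batch, and not which tumour line a mouse carried. The liver numbers in the labels run in series except that of A2M replicate 6, and the labels do not say why. The labels name each liver separately but do not state that each came from another animal, so the p-values below measure the spread between these samples.

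Triglyceride is built by adding fatty acids to a glycerol backbone, mostly in the endoplasmic reticulum, though Gpam is a mitochondrial enzyme. Gpam places the first acyl chain on glycerol-3-phosphate, Agpat2 the next, the lipins remove the phosphate, and the Dgat enzymes add the last chain to diacylglycerol, while Mogat enzymes reach diacylglycerol from monoacylglycerol. Lipolysis runs the other way, with Pnpla2 (adipose triglyceride lipase, ATGL) opening the sequence and Mgll finishing it on monoacylglycerol. In liver these steps set how much fat is stored in droplets, burnt or sent out in lipoproteins, and the same genes are strongly expressed in fat tissue.

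Libraries held 23545121 to 37357134 counted reads in A2M livers and 31513210 to 46381692 in PBS livers. Levels are given as RPKM, read counts scaled to exon length and library size, as deposited. Summed over 8 hepatocyte markers, levels were 52486 to 63724 RPKM in A2M livers and 43659 to 68507 RPKM in PBS livers. Summed Kupffer cell markers were highest in A2M replicate 1, at 134 RPKM, and at most 73.5 RPKM in the other livers. Summed lymphocyte markers were also highest there, at 5.13 RPKM, against at most 3.28 RPKM in the other livers. The part of these markers in the results was not tested. For fat and adrenal markers the library of PBS replicate 2 stood apart. Of 9 fat tissue markers, 6 were taken as defining after the values were seen (Adipoq, Cfd, Lep, Retn, Plin1 and the brown fat gene Ucp1), leaving out Car3, Fabp4 and Adrb3, which were detected in every liver. All 9 summed to 566 to 2136 RPKM in A2M livers, to 3244 RPKM in PBS replicate 2 and to at most 2889 RPKM in the other PBS livers, with Car3 holding most of the sum. The 6 defining markers summed to 0 to 0.106 RPKM in A2M livers, to 426 RPKM in PBS replicate 2, to 6.37 RPKM in PBS replicate 1, and to at most 0.151 RPKM in the other PBS livers. Ucp1 was at 0 in all 6 A2M livers and stood at 116 RPKM in PBS replicate 2. All 6 adrenal markers summed to 2.66 to 12.8 RPKM in A2M livers, to 435 RPKM in PBS replicate 2 and to at most 8.35 RPKM in the other PBS livers. The 4 taken as defining in the same way, Cyp11a1, Cyp11b1, Star and Akr1b7, summed to 0.410 to 0.635 RPKM in A2M livers, to 240 RPKM in PBS replicate 2 and to at most 0.760 RPKM in the other PBS livers. Results for which this library matters are given with and without it.

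None of the 10 genes passed the test between A2M and PBS livers. Counts were tested with edgeR's quasi-likelihood test, and a gene was called at an adjusted p under 0.01, with the adjustment over all 12581 genes that passed a low-count filter. The filter kept 9 of the 10 genes and removed Mogat1. Of the 9 genes, 0 were called higher and 0 lower, where 0.215% of all genes tested were called (0.0795% higher and 0.135% lower in A2M), and 0 passed an adjusted p of 0.05, where 1.22% of all genes did. DESeq2 gave an adjusted p to 9 genes, with Mogat1 and without Pnpla3, and called 0 of them, against 2.28% of all genes. A rule close to the study's also called 0, against 1.52% of all genes. Under it, edgeR's exact test and DESeq2 must each give an adjusted p no higher than 0.01. Mogat1 and Pnpla3 could not be judged by that rule. An unadjusted p under 0.05 was reached by 2 of the 9 genes, Agpat2 and Pnpla3, both lower in A2M, where 14.7% of all genes reached it, 6.38% higher and 8.32% lower. Pnpla3 did not reach it without PBS replicate 2 (unadjusted p 0.409 by edgeR). The livers of the groups overlapped in RPKM for all 10 genes, and 2.27% of all genes tested had groups that did not overlap. The median log2 fold change (A2M over PBS) was 0.15 over the 9 genes and -0.01 over all genes tested, with 6 genes positive and 3 negative. For 7 of the 9 genes the 95% interval of the fold change lay within 2-fold either way, and Lpin1 and Pnpla3 had wider intervals.

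**Figure D1:**
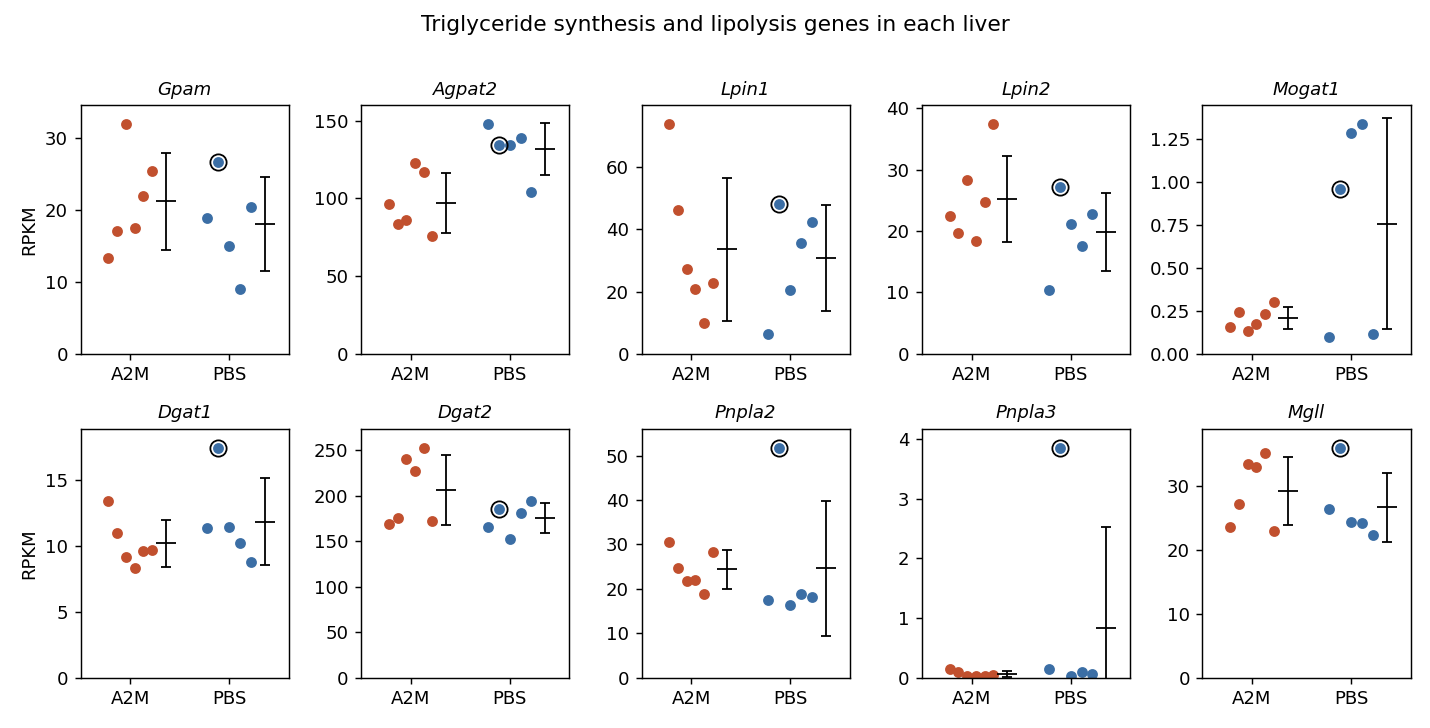
Deposited RPKM (y axis, starting at 0, own scale per gene) of the 10 genes in each A2M liver (red, 6 points) and each PBS liver (blue, 5 points). The black bar is the mean with its SD, cut off at 0 where it would fall below, and a ring marks PBS replicate 2, the liver with fat and adrenal markers. The groups overlap for every gene, and the ringed liver is the highest for Dgat1, Pnpla2, Pnpla3 and Mgll.

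Levels spanned a wide range. By mean RPKM over the 11 livers the order was Dgat2 (192), Agpat2 (113), Lpin1 (32.2), Mgll (28.1), Pnpla2 (24.5), Lpin2 (22.7), Gpam (19.8), Dgat1 (11.0), Mogat1 (0.458) and Pnpla3 (0.415). RPKM is scaled to exon length, so genes can be compared. Dgat2 lay above Agpat2 in 11 of 11 livers, Agpat2 above Lpin1 in 11, and Dgat1 above Mogat1 in 11, and in these pairs the ranges did not touch. All other neighbours in this order overlapped: Lpin1 exceeded Mgll in only 5 livers, Mgll exceeded Pnpla2 in 8, Pnpla2 exceeded Lpin2 in 6, Lpin2 exceeded Gpam in 9, Gpam exceeded Dgat1 in 9 and Mogat1 exceeded Pnpla3 in 9. The place of Mogat1 above Pnpla3 by mean therefore hides that Pnpla3's mean rests on 1 liver. Dgat2 stood far above its companion enzyme Dgat1, and Mogat1 and Pnpla3 were both near the lower limit of detection in most livers.

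Gpam (chromosome 19, 55067268 to 55127238, minus strand of mm10) encodes the mitochondrial glycerol-3-phosphate acyltransferase that commits fatty acids to glycerolipids. Its level in A2M livers was 13.4 RPKM at the lowest, 19.7 at the median and 32.0 at the highest, against 18.9, 26.8, 15.1, 9.08 and 20.5 RPKM in PBS replicates 1 to 5. The highest liver was A2M replicate 3 and the lowest PBS replicate 4, with the groups otherwise mixed. The mean was 21.2 ± 6.75 RPKM in A2M livers and 18.1 ± 6.55 RPKM in PBS livers (SD, n = 6 and 5). This gave a log2 fold change of 0.27 ± 0.24 (SE), with an interval of -0.25 to 0.78 and an adjusted p of 0.667 by edgeR.

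Agpat2 (chromosome 2, 26593057 to 26604417, minus strand) encodes the main liver acyltransferase that turns lysophosphatidate into phosphatidate, and in people its loss causes generalised lipodystrophy with fatty liver. Of the 9 tested genes only Pnpla3 had a smaller p. Its level in A2M livers was 76.0 RPKM at the lowest, 91.4 at the median and 123 at the highest, against 148, 134, 134, 139 and 104 RPKM in PBS replicates 1 to 5. All 6 A2M livers lay below the PBS median of 134 RPKM, and 4 of the 6 lay below every PBS liver. The groups overlapped through A2M replicates 4 and 5, at 123 and 117 RPKM, and PBS replicate 5, at 104 RPKM. The mean was 97.1 ± 19.0 RPKM in A2M livers and 132 ± 16.7 RPKM in PBS livers (SD, n = 6 and 5). The log2 fold change was -0.43 ± 0.14 (SE), a fold of 0.743 with an interval of 0.601 to 0.920. The unadjusted p was 0.0101 and the adjusted p 0.169 by edgeR, so Agpat2 did not pass. Leaving out 1 liver at a time gave log2 fold changes between -0.51 and -0.37, adjusted p between 0.116 and 0.311, and without PBS replicate 2 the value was -0.46 (adjusted p 0.240). Exons of Agpat2 share 64 bases with Egfl7 on the opposite strand, and the kit did not keep the strand.

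The genes whose profile over the 11 livers was most like that of Agpat2 were Frmd8, Med24 and U2af1. Likeness was measured as the root mean square difference of log2 CPM after each gene was centred on its mean, which was 0.12 for Frmd8, 0.14 for Med24 and 0.15 for U2af1, against a median of 0.41 over all genes. U2af1, a splicing factor subunit, stood at 46.1 to 66.3 RPKM in A2M livers and 56.6 to 71.7 RPKM in PBS livers.

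The lipins are phosphatidate phosphatases that yield diacylglycerol, and lipin proteins also act with nuclear receptors in the nucleus. Lpin1 (chromosome 12, 16535669 to 16610966, minus strand) was the most variable of the well-expressed genes. Its level was 73.9, 46.3, 27.2, 21.0, 9.996 and 22.8 RPKM in A2M replicates 1 to 6, against 6.42, 48.2, 20.6, 35.7 and 42.4 RPKM in PBS replicates 1 to 5. Livers at both ends of the range occurred in both groups, and the highest liver was 11.5 times the lowest. The SD of log2 CPM was 1.00 among A2M livers and 1.21 among PBS livers. The mean was 33.5 ± 23.1 RPKM in A2M livers and 30.7 ± 17.0 RPKM in PBS livers (SD, n = 6 and 5). A log2 fold change of 0.15 ± 0.51 (SE) was fitted, with an interval of -0.96 to 1.25 (adjusted p 0.934 by edgeR). This interval leaves room for a change above 2-fold in the upward direction. The sign depended on single livers: the log2 fold change was -0.25 without A2M replicate 1 and -0.12 without PBS replicate 1.

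Lpin2 (chromosome 17, 71182560 to 71249817, plus strand), the other lipin of the set, stood at 18.4 RPKM at the lowest, 23.6 at the median and 37.4 at the highest in A2M livers, against 10.3, 27.2, 21.1, 17.5 and 22.7 RPKM in PBS replicates 1 to 5. PBS replicate 1 was the lowest liver for Lpin2 as it was for Lpin1, and A2M replicate 6 was the highest. The groups overlapped over most of their range. The mean was 25.1 ± 6.98 RPKM in A2M livers and 19.8 ± 6.34 RPKM in PBS livers (SD, n = 6 and 5), and the log2 fold change was 0.36 ± 0.23 (SE, adjusted p 0.513 by edgeR).

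Clock gene levels separated the groups, and several genes of hepatic lipid metabolism are under circadian control. A clock score was taken per liver from dusk-phased minus dawn-phased clock genes. It ran from 0.66 to 1.31 in A2M livers and from -2.51 to -0.07 in PBS livers, without overlap. These clock genes include several that the study had already reported to differ in these livers, among them Usp2, Wee1, Dbp, Per3 and Arntl. The separation and the counts below are therefore no independent support. Of the 12 dusk-phased genes 1 was called higher, Wee1 (log2 fold change 2.96 ± 0.36 SE, adjusted p 0.00284 by edgeR), and of the 6 dawn-phased genes 1 was called lower, Npas2 (-4.47 ± 0.60 SE, adjusted p 0.00533), where 0.215% of all genes were called. At an adjusted p under 0.05 edgeR called 6 of the 12 and 3 of the 6 genes, where 1.22% of all genes passed, and DESeq2 called 8 and 3 at 0.01, where it called 2.28% of all genes. Median log2 fold changes were 1.97 over the dusk-phased and -1.15 over the dawn-phased genes, against -0.01 over all genes tested. The clock repressor Nr1d1, given beside Lpin1 after the values were seen, stood at 38.6, 34.7, 21.9, 9.45, 10.6 and 53.9 RPKM in A2M replicates 1 to 6 and at 9.83, 24.5, 17.7, 43.4 and 40.5 RPKM in PBS replicates 1 to 5. Both genes were low in PBS replicate 1 and A2M replicate 5. Both were high in A2M replicates 1 and 2 and in PBS replicates 4 and 5. A2M replicate 3 and PBS replicate 3 lay between these for both genes, and the remaining livers differed between them. Nr1d1 was highest in A2M replicate 6 and lowest in A2M replicate 4, where Lpin1 was at 22.8 and 21.0 RPKM, and PBS replicate 2 was the second highest liver for Lpin1 and in the middle of the range for Nr1d1. Nr1d1 was not among the 5 genes with the profile most like that of Lpin1, but the dusk-phased clock gene Per1 was. Per1 ranked 4 of these 5, at a root mean square difference of 0.61, against a median of 1.03 over all genes. Dapp1 was nearest, at 0.55, with no more than 0.386 RPKM in any liver. With the clock score as a covariate the log2 fold change of Lpin1 was -1.56 ± 0.84 (SE, adjusted p 0.999 by edgeR), in the opposite direction to the fit without it. Since the score and the treatment separate the same livers, they cannot be told apart.

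Sequences before the start sites were read for motifs tied to the clock and to nuclear receptors. They are the 250 bases before each start, from RefSeq on build GRCm38.p6, the build of mm10. Of the 10 genes 8 matched an entry, with 12 start sites. The E-box CACGTG, which reads the same on both strands and is bound by clock proteins and lipogenic factors, was found in 2 of the 12 windows, against 6.02% of 32851 windows of the same length. The motif AGGTCA, searched on both strands, at which many nuclear receptors bind, including Nr1d1, was found in 2 of the 12 windows, against 14.02%. The 2 motifs do not overlap each other in letters. The 2 windows with AGGTCA were those of Lpin1 and Gpam. In Gpam, whose window is not shown, it began 196 bases before the start. A window of Lpin1, Lpin2 and Mgll is shown because it holds a motif and, for Lpin1, because it varied most among the well-expressed genes. The motif is in capitals, on the strand of the gene, 5′ to 3′.
Lpin1 (chr12:16610967-16611216, minus strand): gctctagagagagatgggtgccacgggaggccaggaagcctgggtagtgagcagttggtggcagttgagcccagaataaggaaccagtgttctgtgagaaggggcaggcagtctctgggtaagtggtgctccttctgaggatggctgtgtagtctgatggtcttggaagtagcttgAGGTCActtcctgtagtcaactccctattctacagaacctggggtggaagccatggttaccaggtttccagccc
Lpin2 (chr17:71183282-71183531, plus strand): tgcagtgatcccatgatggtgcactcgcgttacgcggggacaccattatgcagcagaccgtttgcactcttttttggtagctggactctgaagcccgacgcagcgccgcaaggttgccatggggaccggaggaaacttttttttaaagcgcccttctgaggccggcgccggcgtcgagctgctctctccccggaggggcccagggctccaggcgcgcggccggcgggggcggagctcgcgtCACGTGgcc
Mgll (chr6:88724162-88724411, plus strand): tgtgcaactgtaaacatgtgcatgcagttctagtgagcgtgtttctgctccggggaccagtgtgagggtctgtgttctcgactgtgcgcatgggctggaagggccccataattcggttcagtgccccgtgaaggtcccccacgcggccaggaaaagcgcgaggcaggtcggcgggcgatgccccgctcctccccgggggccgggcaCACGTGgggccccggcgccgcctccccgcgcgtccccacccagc
The AGGTCA of Lpin1 began 74 bases before the start, the E-box of Lpin2 began 9 bases before it and that of Mgll 44 bases before it. These matches are descriptions of letters and not of binding, and neither Lpin2 nor Mgll, the genes with an E-box, passed the test between the groups.

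Mogat1 (chromosome 1, 78510991 to 78538173, plus strand) encodes a monoacylglycerol acyltransferase that is low in normal mouse liver and known to rise in fatty liver. It was near the detection limit in all A2M livers, with 6, 7, 6, 6, 7 and 11 reads in replicates 1 to 6, and had 4, 45, 49, 75 and 5 reads in PBS replicates 1 to 5. In RPKM it was 0.133 at the lowest, 0.202 at the median and 0.302 at the highest in A2M livers, against 0.0958, 0.958, 1.29, 1.34 and 0.115 in PBS livers. The PBS livers fell into 3 that lay above every A2M liver and 2 that lay below every A2M liver. The high ones were PBS replicates 2, 3 and 4. The mean was 0.207 ± 0.0636 RPKM in A2M livers and 0.760 ± 0.615 RPKM in PBS livers (SD, n = 6 and 5). Mogat1 was removed by the low-count filter, and in the fit without the filter, over 18193 genes, its log2 fold change was -1.89 ± 0.63 (SE, unadjusted p 0.00935, adjusted p 0.210 by edgeR). DESeq2 gave -1.90 with an adjusted p of 0.0764. Without PBS replicate 2 and without the filter the value was -1.86 (adjusted p 0.307), so the lower level in A2M livers was as large without that library. Its exons share 200 bases with BC035947 on the opposite strand, and reads there cannot be told apart.

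Dgat1 and Dgat2 add the last acyl chain and belong to unrelated protein families, Dgat2 being a relative of Mogat1. Dgat1 (chromosome 15, 76502015 to 76511953, minus strand) stood at 8.37 RPKM at the lowest, 9.68 at the median and 13.4 at the highest in A2M livers, against 11.4, 17.5, 11.4, 10.3 and 8.79 RPKM in PBS replicates 1 to 5. PBS replicate 2 was the highest, and the other livers of both groups lay on the same range. The mean was 10.2 ± 1.78 RPKM in A2M livers and 11.9 ± 3.32 RPKM in PBS livers (SD, n = 6 and 5). Its log2 fold change was -0.19 ± 0.16 (SE, adjusted p 0.640 by edgeR) and -0.06 ± 0.14 without PBS replicate 2 (adjusted p 0.922).

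Dgat2 (chromosome 7, 99153658 to 99182719, minus strand), which in liver serves mainly newly made fatty acids, was the most abundant of the 10 genes. Its level in A2M livers was 168.9, 175, 240.5, 227, 253 and 172 RPKM in replicates 1 to 6, against 165, 185, 153, 181 and 194 RPKM in PBS replicates 1 to 5. The A2M livers lay in a lower set of 3 within the PBS range and a higher set of 3, replicates 3, 4 and 5, above every PBS liver. The mean was 206 ± 38.1 RPKM in A2M livers and 176 ± 16.7 RPKM in PBS livers (SD, n = 6 and 5). The log2 fold change was 0.24 ± 0.13 (SE), with an interval of -0.04 to 0.52 and an adjusted p of 0.426 by edgeR.

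**Figure D2:**
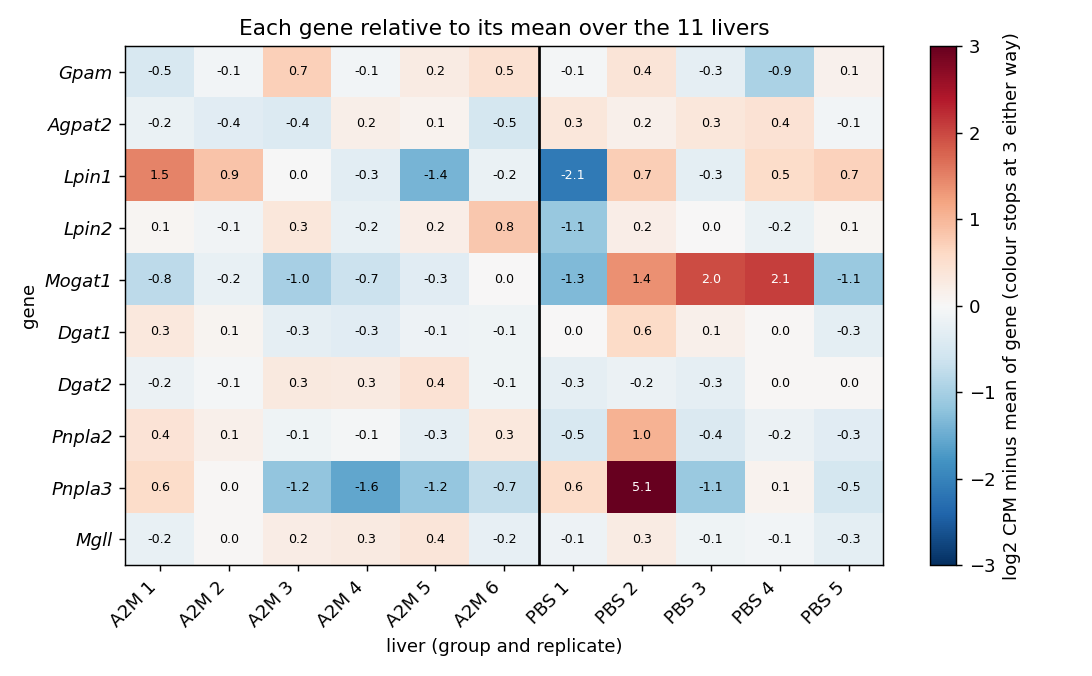
Log2 CPM (counts scaled to library size with TMM, prior count 2) of each gene minus its mean over the 11 livers, printed in each cell and coloured, with A2M livers left of the line and PBS livers right. Pnpla3 in PBS replicate 2 stands 5.1 above its mean, Lpin1 spans -2.1 to 1.5, and Mogat1 is high in PBS replicates 2, 3 and 4.

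Pnpla2 (chromosome 7, 141455198 to 141460743, plus strand), the lipase that opens triglyceride breakdown, gave a result that turned on 1 library. Its level in A2M livers was 18.9 RPKM at the lowest, 23.4 at the median and 30.6 at the highest, against 17.6, 51.8, 16.4, 18.9 and 18.3 RPKM in PBS replicates 1 to 5. PBS replicate 2 lay far above all other livers, and the remaining 4 PBS livers lay together at 16.4 to 18.9 RPKM. The mean was 24.4 ± 4.37 RPKM in A2M livers and 24.6 ± 15.2 RPKM in PBS livers (SD, n = 6 and 5), and the log2 fold change was 0.03 ± 0.26 (SE, adjusted p 0.971 by edgeR). Without PBS replicate 2 the PBS mean was 17.8 ± 1.05 RPKM (n = 4) and the log2 fold change 0.43 ± 0.14 (SE), with an unadjusted p of 0.00810 and an adjusted p of 0.207. In that comparison all 6 A2M livers lay above the 4 PBS livers, the nearest by less than 0.1 RPKM (18.92 in A2M replicate 5 against 18.89 in PBS replicate 4), where 1.42% of 12632 genes had all A2M livers above. By TMM-scaled CPM, the scale of the test, the groups overlapped also without PBS replicate 2, with 51.9 CPM in A2M replicate 5 against 55.2 CPM in PBS replicate 4. Pnpla2 thus did not pass with or without that liver. Pnpla2 is strongly expressed in fat tissue, and PBS replicate 2 held fat markers, whose part in the result was not tested.

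Pnpla3 (chromosome 15, 84167837 to 84187236, plus strand) encodes a lipid droplet protein related to Pnpla2, known from its human variant in fatty liver disease and, in the mouse, expressed in fat tissue and in the carbohydrate-fed liver. It had 21, 10, 6, 3, 4 and 7 reads in A2M replicates 1 to 6, against 24, 697, 5, 20 and 10 reads in PBS replicates 1 to 5. In RPKM that was 0.0227 at the lowest, 0.0422 at the median and 0.142 at the highest in A2M livers, against 0.149, 3.85, 0.0341, 0.0928 and 0.0597 in PBS replicates 1 to 5. All livers but PBS replicate 2 were at or below 0.149 RPKM, and PBS replicate 2 was 25.8 times the next highest liver. The log2 fold change over all 11 livers was -3.61 ± 1.14 (SE), with an unadjusted p of 0.00723 and an adjusted p of 0.145 by edgeR. DESeq2 gave Pnpla3 no p-value. Without PBS replicate 2 the log2 fold change was -0.44 ± 0.52 (SE, adjusted p 0.797), so the fold change over all livers rests on that library. The genes with the most similar profile over the 11 livers were Cyp21a1, Fabp4 and Cpe, with root mean square differences of 0.56, 0.58 and 0.64 against a median of 1.76 over all genes. Cyp21a1, an adrenal steroid enzyme, stood at 1.38 to 11.4 RPKM in A2M livers, at 95.1 RPKM in PBS replicate 2 and at no more than 5.56 RPKM in the other PBS livers. Fabp4, the fat cell fatty acid carrier, stood at 3.38 to 6.56 RPKM in A2M livers, at 605 RPKM in PBS replicate 2 and at no more than 13.7 RPKM in the other PBS livers. In bulk tissue, more cells of a type and more RNA per cell cannot be told apart. Exons of Pnpla3 share 105 bases with the transcript Gm49513 on the same strand.

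Mgll (chromosome 6, 88724412 to 88828360, plus strand), the lipase that releases the last fatty acid from monoacylglycerol, had the narrowest range of the 10 genes, with its highest liver 1.61 times its lowest. Its level in A2M livers was 23.6, 27.3, 33.5, 33.0, 35.3 and 23.1 RPKM in replicates 1 to 6, against 26.4, 36.1, 24.4, 24.2 and 22.5 RPKM in PBS replicates 1 to 5. A2M replicates 2, 3, 4 and 5 lay above every PBS liver other than replicate 2, and A2M replicates 1 and 6 lay within the range of the other PBS livers. The mean was 29.3 ± 5.34 RPKM in A2M livers and 26.7 ± 5.42 RPKM in PBS livers (SD, n = 6 and 5). Its log2 fold change was 0.16 ± 0.14 (SE, adjusted p 0.651 by edgeR) and 0.24 ± 0.14 without PBS replicate 2 (adjusted p 0.500). Exons of Mgll share 167 bases with Gm26588 on the opposite strand.

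**Figure D3:**
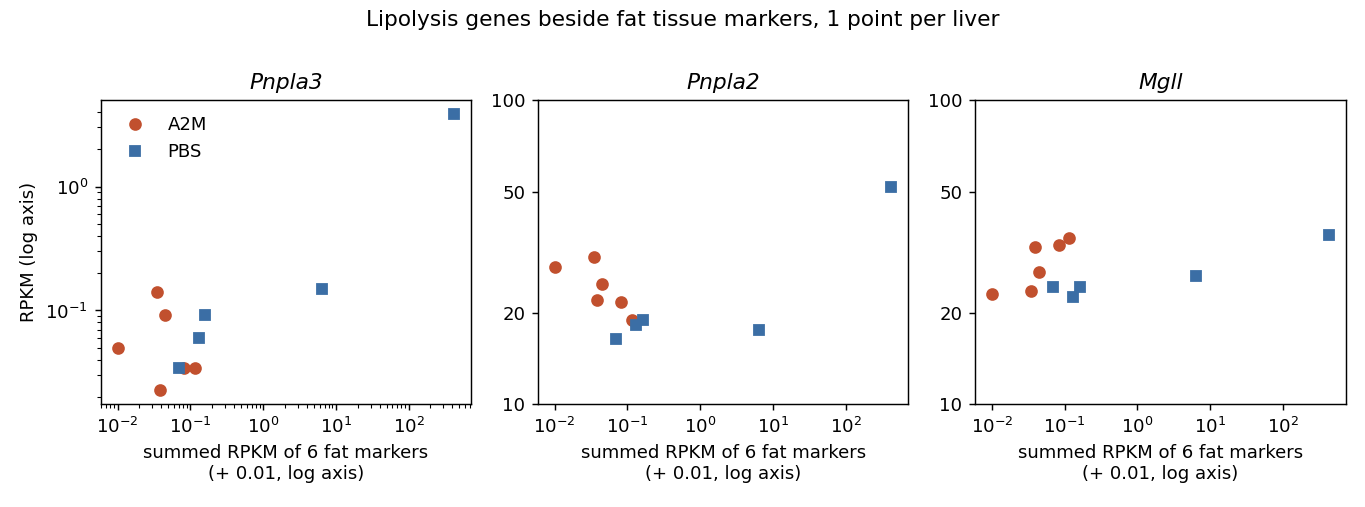
RPKM of Pnpla3, Pnpla2 and Mgll (y axes, log scale) against the summed RPKM of 6 defining fat tissue markers plus 0.01 (x axes, log scale), 1 point per liver, A2M as circles and PBS as squares. The square at the right of each panel is PBS replicate 2, at 426 RPKM of fat markers, and the next square is PBS replicate 1, at 6.37 RPKM. All other livers are at or below 0.151 RPKM of fat markers.

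PBS replicate 2 was the highest liver for 4 of the 10 genes by RPKM (Dgat1, Pnpla2, Pnpla3 and Mgll) and for 3 of them by TMM-scaled CPM, where A2M replicate 5 was the highest for Mgll. PBS replicate 1, with lower levels of fat markers, stood at 17.6 RPKM for Pnpla2, within the range of PBS replicates 3 to 5, and was the second highest PBS liver for Pnpla3 (0.149 RPKM) and for Mgll (26.4 RPKM). Without PBS replicate 2 the fold changes of Gpam (0.41), Lpin2 (0.46), Dgat2 (0.23) and Agpat2 (-0.46), all log2, moved by less than their standard errors.

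**Figure D4:**
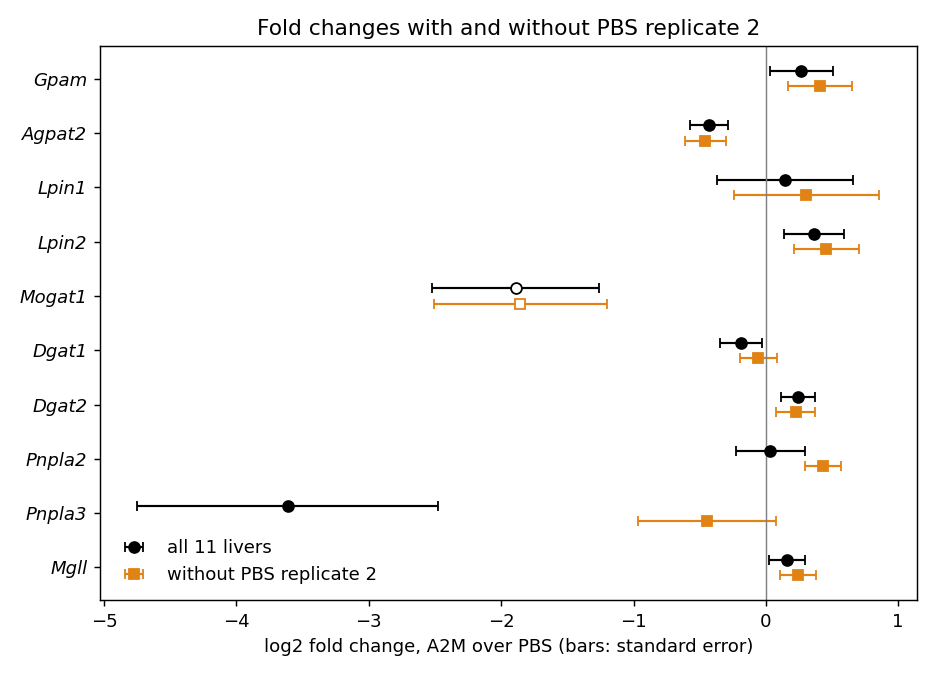
Log2 fold change, A2M over PBS, with its standard error for each gene, over all 11 livers (black circles) and without PBS replicate 2 (orange squares). Open symbols for Mogat1 come from the fit without the low-count filter. Leaving out that liver moves Pnpla3 to -0.44 from -3.61 and Pnpla2 to 0.43 from 0.03, while the other genes move by less than their standard errors.

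The other genes of the pathway were described from 7 lists with 82 genes, of which 76 were tested. By edgeR 0 were called higher and 0 lower, where 0.215% of all genes were called. An adjusted p of 0.05 was passed by 1, where 1.22% of all genes passed. An unadjusted p under 0.05 was reached by 16, 8 higher and 8 lower in A2M livers, where 14.7% of all genes reached that level. DESeq2 called 3, Agpat6 and Slc27a5 higher and Insig2 lower, where it called 2.28% of all genes. The rule close to the study's called Agpat6 alone, against 1.52% of all genes. List medians lay between -0.05 and 0.10 on the log2 scale.

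Agpat6, named Gpat4 in later nomenclature, is a glycerol-3-phosphate acyltransferase of the endoplasmic reticulum that catalyses the same step as Gpam. It stood at 39.5, 34.5, 43.3, 35.5, 39.3 and 28.1 RPKM in A2M replicates 1 to 6, against 24.6, 25.3, 28.5, 17.2 and 25.9 RPKM in PBS replicates 1 to 5. Only A2M replicate 6 and PBS replicate 3 crossed. The log2 fold change was 0.61 ± 0.13 (SE, adjusted p 0.0394 by edgeR), and without PBS replicate 2 it was 0.59 (adjusted p 0.101). Agpat6 was the only one of 14 tested acyltransferases and phosphatases with an unadjusted p under 0.05, where 14.7% of all genes reached that level.

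Among the 5 tested genes of glycerol-3-phosphate supply, 2 had an unadjusted p under 0.05, where 14.7% of all genes reached that level. Gpd1l, which makes glycerol-3-phosphate, stood at 6.23 to 13.0 RPKM in A2M livers and 3.73 to 7.43 RPKM in PBS livers (log2 fold change 0.75 ± 0.21 SE, adjusted p 0.114 by edgeR). Gpd2, the mitochondrial enzyme that uses it up, stood at 3.64 to 5.44 RPKM in A2M livers and 5.06 to 12.2 RPKM in PBS livers (log2 fold change -0.42 ± 0.19 SE, adjusted p 0.336, and -0.16 without PBS replicate 2, its highest liver).

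Among the 10 genes of fatty acid uptake and activation, 3 had an unadjusted p under 0.05, where 14.7% of all genes reached that level. Slc27a5, the liver fatty acid transporter and bile acid ligase, stood at 330 to 363 RPKM in A2M livers and 245 to 307 RPKM in PBS livers. These ranges did not overlap, as was so for 2.27% of all genes tested. Its log2 fold change was 0.30 ± 0.09 (SE, adjusted p 0.131 by edgeR, 0.296 without PBS replicate 2). Acsl4, an acyl-CoA synthetase that prefers arachidonate, had a log2 fold change of 0.67 ± 0.21 (SE, adjusted p 0.134). The fatty acid transporter Cd36 had one of -1.90 over all livers and 0.54 without PBS replicate 2, where it was 27.1 RPKM.

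Among the 15 other lipases and cofactors, 2 had an unadjusted p under 0.05, where 14.7% of all genes reached that level. They were Abhd6, another monoacylglycerol lipase (log2 fold change 0.40 ± 0.17 SE, adjusted p 0.280 by edgeR), and Hilpda, an inhibitor of Pnpla2 (-0.37 ± 0.17, adjusted p 0.335). Hilpda stood at 1.55 to 2.15 RPKM in A2M livers and at 2.01 to 2.67 RPKM in PBS livers.

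Among the 12 tested lipid droplet genes, 4 had an unadjusted p under 0.05, where 14.7% of all genes reached that level. Plin5, a droplet coat protein that binds Pnpla2, stood at 11.6 to 17.9 RPKM in A2M livers and 16.5 to 25.3 RPKM in PBS livers (log2 fold change -0.47 ± 0.16 SE, adjusted p 0.171 by edgeR). Fitm2, which partitions triglyceride into droplets, had a log2 fold change of 0.48 ± 0.15 (SE, adjusted p 0.151). Plin4 and Cidec, droplet proteins of fat cells, had log2 fold changes of -3.001 (adjusted p 0.0894) and -2.67 (adjusted p 0.253). Without PBS replicate 2, where they stood at 10.04 and 35.6 RPKM, these were -1.31 and 0.60.

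Of the 6 genes of very low density lipoprotein assembly none had an unadjusted p under 0.05, where 14.7% of all genes reached that level. Mttp, which loads lipid onto apolipoprotein B, averaged 61.8 ± 7.97 RPKM in A2M livers and 57.4 ± 4.48 RPKM in PBS livers (log2 fold change 0.13 ± 0.10 SE, adjusted p 0.616 by edgeR).

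Of the 14 transcriptional regulators 4 had an unadjusted p under 0.05, where 14.7% of all genes reached that level. Insig2, which retains the lipogenic factor SREBP in the endoplasmic reticulum, stood at 57.2, 79.8, 49.3, 36.9, 37.7 and 103 RPKM in A2M replicates 1 to 6, against 139, 101, 142, 110 and 113 RPKM in PBS replicates 1 to 5. Only A2M replicate 6 reached the PBS range. The log2 fold change was -0.98 ± 0.25 (SE, adjusted p 0.0884 by edgeR). Mlxipl, the carbohydrate-responsive factor ChREBP, which is known to drive Pnpla3, had a log2 fold change of -0.42 ± 0.13 (SE, adjusted p 0.145), and Creb3l3 one of 0.28 ± 0.09 (adjusted p 0.160). Srebf1 averaged 52.5 ± 24.8 RPKM in A2M livers and 37.1 ± 7.56 RPKM in PBS livers (log2 fold change 0.52, adjusted p 0.457).

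Feeding state was described from 2 further lists, since the labels do not give it. Of 10 fed-state lipogenic and glycolytic genes 0 were called by edgeR and 3 had an unadjusted p under 0.05, Thrsp, Acacb and Elovl6, all with positive fold changes, where 14.7% of all genes reached that level. Over the 10 genes of this list the median log2 fold change was 0.21. Thrsp stood at 123 to 808 RPKM in A2M livers and 56.8 to 309 RPKM in PBS livers (log2 fold change 1.54 ± 0.51 SE, adjusted p 0.164). Of 10 fasting-state genes 1 was called by edgeR, where 0.215% of all genes were called. It was G6pc, the glucose-6-phosphatase of gluconeogenesis, at 18.1 to 64.5 RPKM in A2M livers and 91.3 to 330 RPKM in PBS livers (log2 fold change -2.37 ± 0.33 SE, adjusted p 0.00632). Without PBS replicate 2 its adjusted p was 0.0172. An unadjusted p under 0.05 was reached by 6 of the 10 fasting-state genes, G6pc, Pdk4, Fgf21 and Igfbp1 with negative and Acot1 and Cyp4a14 with positive fold changes, and the median log2 fold change of the list was -0.31. The study lists Thrsp as higher and Pdk4 as lower in A2M livers. Its methods name edgeR and DESeq, with a p-value of at most 0.01 in each. The rule close to the study's, with DESeq2 in place of DESeq, called neither. Because the tools differ, this does not show that the study's calls fail. The part of feeding state or time of day in the values of the 10 genes was not tested.

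**Figure D5:**
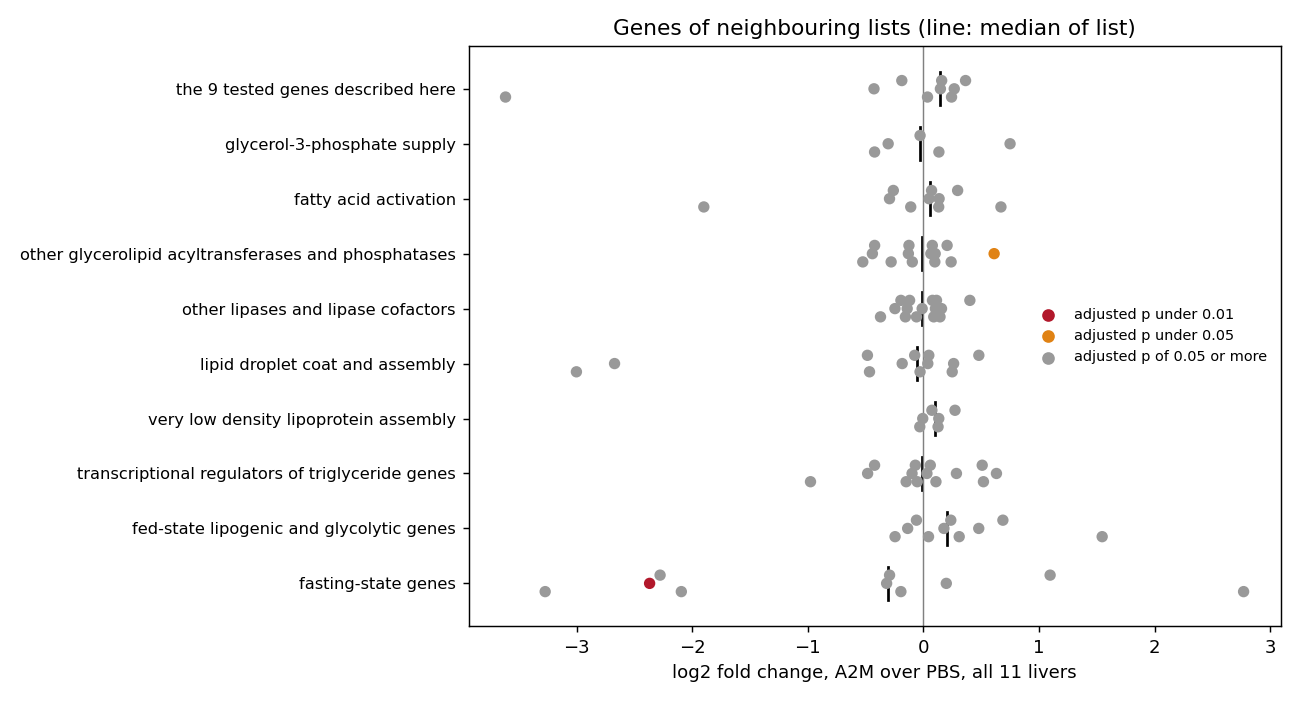
Log2 fold change (A2M over PBS, all 11 livers) of every tested gene of the 10 genes described and of 9 further lists, 1 point per gene, with a black line at each list's median. The 1 red point is G6pc (adjusted p under 0.01), the 1 orange point is Agpat6 (adjusted p under 0.05), and grey points did not pass either threshold.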

How the data were processed

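Total RNA of 11 livers was made into unstranded TruSeq v2 libraries and sequenced as single reads. According to the methods and processing notes, the authors used bcl2fastq 1.8.4, TopHat2 on mm10 and featureCounts with RefSeq genes. The deposited counts are whole reads per gene. In the deposited RPM table each count is scaled to its library total, which was checked to a tolerance of 1e-06. For the deposited RPKM table the authors also divided by the exon length that featureCounts gives.

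Counts were fitted in edgeR 4.0.16 (R 4.3.3; TMM, filterByExpr by group, quasi-likelihood F-test, Benjamini-Hochberg over 12581 genes, adjusted p under 0.01). Intervals are at 95%. The code was tested on simulated data. No 2 libraries agreed within sampling noise (smallest chi-square per degree of freedom 28.5), so each counted once. The clock score was the mean z of log2 CPM over dusk-phased genes minus that over dawn-phased genes. Alternatives were RLE size factors, library totals, no filter, robust dispersion, DESeq2 1.42.0, the exact test with DESeq2, the looser threshold, the clock score as covariate and leaving livers out. Leave-one-out fits without the filter, for Mogat1 and Pnpla3, were added after seeing the data. The 10 genes and all lists were chosen with earlier results of these data known. Named were all 10 genes, list members past the threshold or with the smallest p (up to 3), and the 3 nearest profiles of the 2 genes with the smallest p. Other genes named, such as Nr1d1, Mttp and Srebf1, were picked after their values were seen. Gene positions are from GENCODE vM21, and 2 list genes matched by an older symbol.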

Additional observations from a re-analysis of the deposited data

Results flagged for a closer look

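In 3 of the 20 groups of livers examined (10 genes, A2M and PBS each) the highest liver lay farther from its neighbours than Dixon's 95% limit allows, and chance alone flags about 1 group in 20. All 3 were PBS replicate 2: Pnpla2 at 51.8 RPKM, Pnpla3 at 3.85 RPKM and Mgll at 36.1 RPKM. Coming from 1 library, the 3 are not independent and cannot be set against that share. The limit was applied to RPKM. By TMM-scaled CPM, Mgll stood at 153 in PBS replicate 2, below A2M replicate 5 at 165. In the same library the defining fat markers summed to 426 RPKM and the defining adrenal markers to 240 RPKM. Their part in these values was not tested. No A2M liver was marked for any of the 10 genes.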

How the results depend on the processing

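Over 193 pairs of a gene and an alternative, 180 kept the direction and the side of the threshold, 13 reversed direction, and 0 crossed the threshold. Pnpla3 had no adjusted p by DESeq2 or by the exact test with DESeq2, so these pairs show the direction only. The lowest adjusted p of any of the 10 genes was 0.0764, for Mogat1 by DESeq2. The reversed values were all far from the threshold. Lpin1 (0.15 on the log2 scale) became -1.56 with the clock score as covariate and -0.08 without PBS replicate 2 and A2M replicate 1, and ranged from -0.25 to 0.33 when 1 liver was left out. Dgat2 (0.24) became -0.015 with the clock score. Pnpla2 (0.03) became -0.014 with library totals and -0.27 with the clock score, and ranged from -0.071 to 0.43 over the fits without 1 liver, the highest being that without PBS replicate 2. Pnpla3 ranged from -4.04 to -0.44, the value without PBS replicate 2. The low-count filter removed it without A2M replicate 1, without A2M replicate 2, and without PBS replicate 2 and A2M replicate 1, and the range is from fits without the filter. Among the 76 other pathway genes, edgeR called 0 higher and 0 lower, DESeq2 2 and 1, the exact test with DESeq2 1 higher, and an adjusted p under 0.05 1 higher. The shares over all genes were 0.215% by edgeR, 2.28% by DESeq2, 1.52% by the exact test with DESeq2 and 1.22% at an adjusted p under 0.05. With the clock score as covariate all adjusted p of the 10 genes that could be fitted were 0.999. No paired analysis was possible because the labels give no numbers shared between the groups. Depth limits Mogat1, with at most 75 reads in any liver, and Pnpla3, with at most 24 reads outside PBS replicate 2.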
